A study of Mus musculus with 15 samples.

Results

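Leukocyte adhesion molecules were described in Mouse Embryonic Fibroblasts (MEFs, connective tissue cells of mouse embryos) across 5 groups of 3 one-color microarrays. The 9 genes were *Icam1*, *Icam2*, *Vcam1*, *Alcam*, *Cd44*, *Mcam*, *Ncam1*, *Sele* and *Selp*, chosen by name, out of 23462 genes named on the array. Their members were all probes whose RefSeq transcript belongs to a listed gene, 19 of 56605 distinct probes. MEFs were the established line Balb/c/3T3 clone A31 in every group, the controls included. The groups were MEFs alone (controls) and MEFs incubated with 1 of 4 cytokines: IL-1β at 1 ng/ml, TGFß1 at 5 ng/ml, TNFα at 10 ng/ml, or 20 ng/ml of IL-6 joined by 25 ng/ml of its soluble receptor sIL-6Rα. The groups are called control, TNFα, TGFß1, IL-1β and IL-6. Stimulation lasted 24 h for the arrays of control, TNFα and TGFß1. The labels give 24 or 72 h for the whole series, and no time is stated for IL-1β and IL-6 alone. As 1 line was used, the 3 arrays of a group do not sample different embryos. An array is called by its group and the number that opens its label.

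Leukocytes leave the blood in steps. Selectins on the vessel wall catch them and let them roll, chemokines then switch their integrins on, and the integrins grip members of the immunoglobulin superfamily such as ICAM-1 and VCAM-1 on the endothelium. Fibroblasts carry several of the same molecules, with which they hold leukocytes inside a tissue. *Icam1*, *Vcam1* and, in endothelial cells, *Sele* are textbook targets of NF-kB, the transcription factor that TNFα and IL-1β switch on, while TGFß1 signals through SMAD proteins and IL-6 through STAT3.

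RefSeq sequence before the start site was at hand for 6 of the 9 genes (*Icam1*, *Alcam*, *Cd44*, *Mcam*, *Sele* and *Selp*). The sequences of *Icam1* and *Sele* are shown as 250 bases of build GRCm38.p6, 5′ to 3′ and ending at the base before the start site, because both genes are known for NF-kB control and their readings on these arrays were very different. Both lie on the plus strand, *Icam1* at chr9:21015690-21015939 and *Sele* at chr1:164047984-164048233. Capitals mark the letters GGNNNTTCC, a short form of the NF-kB motif, read on either strand.
Icam1: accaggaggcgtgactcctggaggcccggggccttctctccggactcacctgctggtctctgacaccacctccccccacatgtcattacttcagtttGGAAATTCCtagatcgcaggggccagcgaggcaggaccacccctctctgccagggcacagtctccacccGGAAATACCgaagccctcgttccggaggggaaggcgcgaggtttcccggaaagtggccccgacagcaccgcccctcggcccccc
Sele: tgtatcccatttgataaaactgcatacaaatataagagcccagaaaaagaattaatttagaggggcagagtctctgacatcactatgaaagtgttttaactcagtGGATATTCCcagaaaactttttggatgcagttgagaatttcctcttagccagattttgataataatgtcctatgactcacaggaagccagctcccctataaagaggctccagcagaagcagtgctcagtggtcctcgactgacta
*Icam1* held these letters at positions -153 to -145, where the pattern matches on both strands, and on the minus strand at -84 to -76. *Sele* held them at -145 to -137, and *Selp* on the minus strand at -14 to -6. They occur in 18.5% of the 32851 promoters searched, each 250 bases before to 50 bases after a start site. The STAT letters TTCNNNGAA, in 8.3% of promoters, occurred in *Icam1* at -42 to -34 and in *Sele* at -140 to -132, where they overlap the NF-kB letters. The AP-1 letters TGANTCA, in 7.81%, occurred in *Sele* at -73 to -67 and in *Selp* at -139 to -133. None of these genes held the longer NF-kB consensus (4.51% of promoters) or the SMAD letters GTCTAGAC (0.213%). *Alcam*, *Cd44* and *Mcam* held none of the sets of letters, all of which were searched on both strands, and this says only that the letters are not in this window.

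A level is the log2 brightness of a probe minus the 75th percentile of its array, so that a level of 0 is the brightness of that percentile and a step of 1 is a doubling. Levels are compared between arrays for 1 probe and never between probes. Testing was limited to the 29334 probes that all 3 arrays of some group showed well above background. A probe was called when limma's moderated test, adjusted by Benjamini and Hochberg, gave a q-value under 0.05 and the levels differed 1.5-fold or more. All comparisons come from 1 fit of the 15 arrays, so that the 4 comparisons with control share the control arrays. Of the 19 probes, 18 were tested, and 8 of the 9 genes had a tested probe. Where a gene had more than 1 probe, the brightest stands for it, and no spot was saturated. Over all probes with a reading on every array, the 3 arrays of a cytokine did not overlap with the controls for 29.6% of probes with TNFα, 39.1% with TGFß1, 5.37% with IL-1β and 5.18% with IL-6. The arrays were on 2 slides, of which slide 1 held control 1 and 11, TNFα 14, TGFß1 7, IL-1β 5 and 10, and IL-6 3 and 8, and slide 2 held the other arrays. All 10 fibroblast markers examined (among them *Col1a1*, *Pdgfra*, *Thy1* and *Vim*) were well above background on all 15 arrays. Of 10 endothelial markers, 7 were on none (*Cdh5*, *Tek*, *Tie1*, *Kdr*, *Emcn*, *Cldn5* and *Esam*) while *Pecam1* and *Egfl7* were on all. Of 10 leukocyte markers, *Ptprc* (CD45), *Adgre1*, *Tyrobp* and *Laptm5* were on none, and *Cd68*, *Csf1r* and *Cd3e* were on all. *Itgb2* was on all but control 11, and *Coro1a* was called higher with TNFα (4.12% of all probes). Each array measures a whole culture, so fewer cells with a transcript and less of it per cell cannot be told apart.

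**Figure D1:**
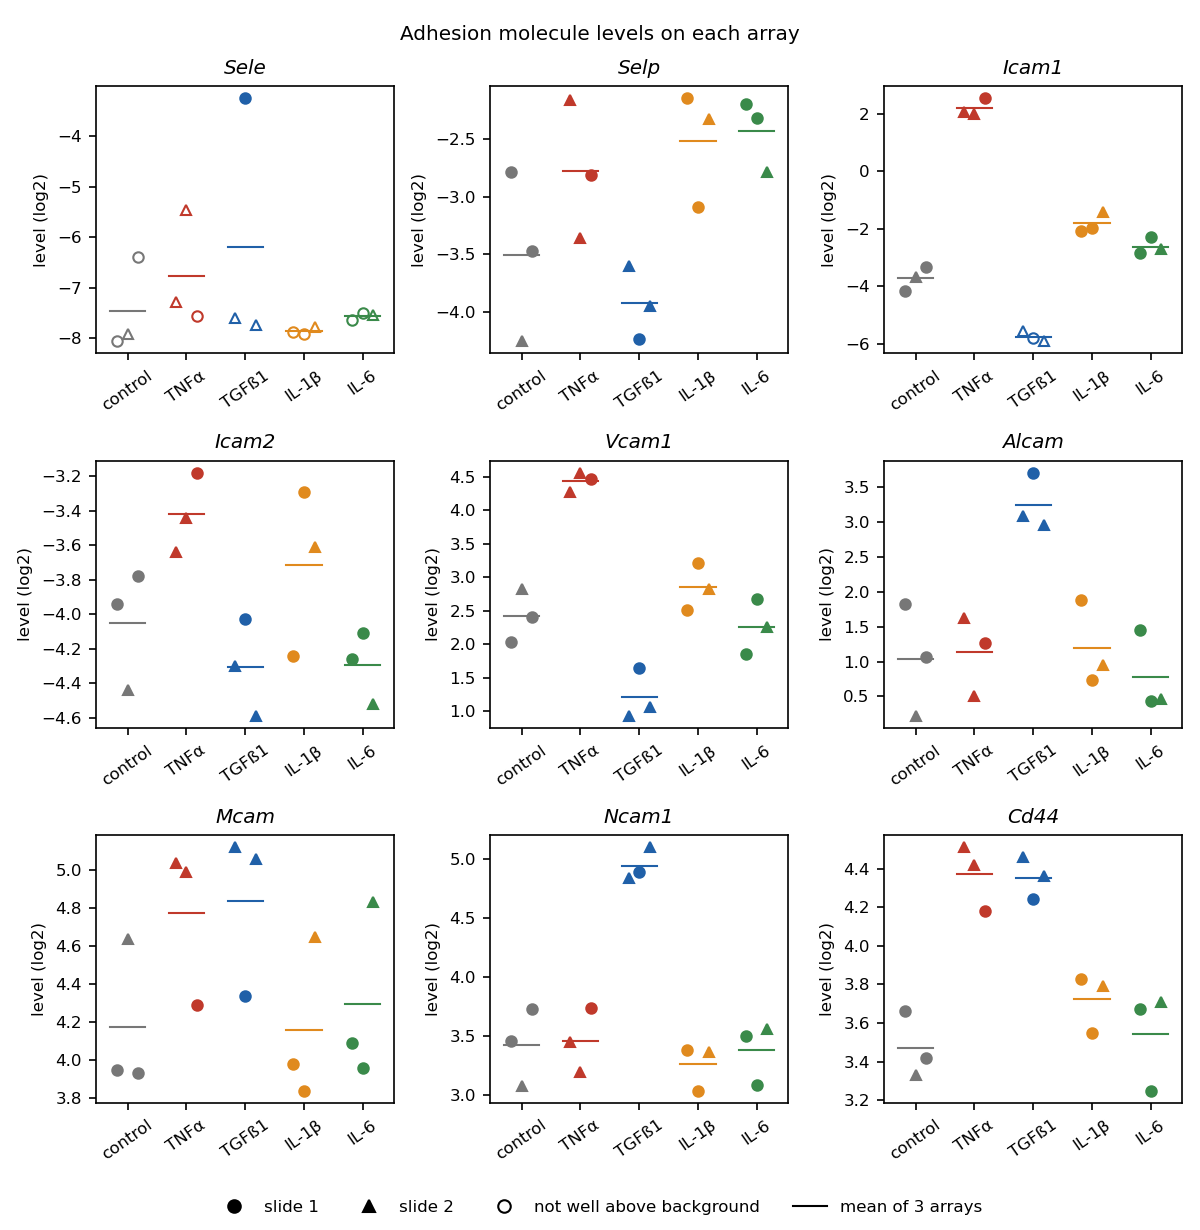
Level of each gene's brightest probe on each array, in log2 units relative to the array's 75th percentile, by group; lines are means of 3 arrays, circles slide 1, triangles slide 2, and open symbols readings not well above background. The 3 TNFα arrays of *Icam1* (1.99 to 2.54) lie far above all other arrays and its 3 TGFß1 readings (-5.91 to -5.56) are open, while *Sele* has 1 filled symbol, TGFß1 7 at -3.25.

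With TNFα, 3 of the 8 tested genes were called and all were higher: *Icam1*, *Vcam1* and *Cd44*. In this comparison 4.12% of all probes tested were called higher and 6.06% lower. The median log2 fold-change of the 8 genes was 0.68, beside 0.04 over all probes tested. With TGFß1, 5 genes were called, of which *Alcam*, *Ncam1* and *Cd44* were higher (7.17% of all probes) and *Icam1* and *Vcam1* lower (10.8%), and the median was 0.21 beside 0.05. With IL-1β, *Icam1* alone was called, higher (0.245% of all probes higher and 0.00682% lower), with a median of 0.30 beside 0. With IL-6, limma called none of the 8 (0.0648% of all probes, all higher), with a median of 0.02 beside 0. At an unadjusted p below 0.05 it gave 2, *Icam1* and *Selp*, beside 3.26% of all probes. *Icam1* and *Vcam1* were thus called in opposite directions with TNFα and TGFß1, *Cd44* in the same direction, and *Alcam* and *Ncam1* with TGFß1 only among the comparisons with control.

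**Figure D2:**
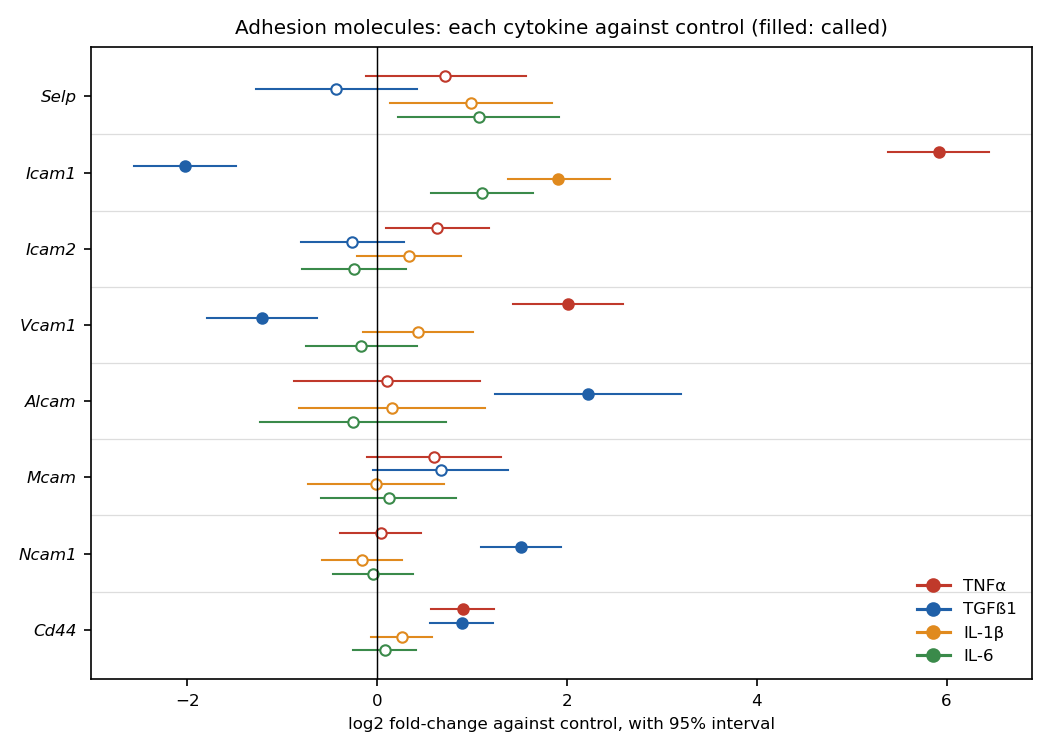
Log2 fold-change of 8 adhesion molecules for each cytokine against control (x axis, log2 units), from 3 arrays against 3, with 95% intervals; filled points were called. *Icam1* spans from -2.03 with TGFß1 to 5.92 with TNFα, and the intervals of *Cd44* with TNFα (0.57 to 1.23) and TGFß1 (0.56 to 1.22) nearly coincide.

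*Icam1* (NM_010493) encodes ICAM-1, the endothelial and fibroblast ligand of the leukocyte integrins LFA-1 and Mac-1. Its level was -4.17, -3.69 and -3.31 on control 1, 6 and 11. It was 2.06, 1.99 and 2.54 on TNFα 4, 9 and 14. Every TNFα array stood above every array of the other groups. The rise was 5.92 on the log2 scale (SE 0.25, 60.5-fold, q = 4.13e-08), and was 6.28 within slide 1 and 5.72 within slide 2. In the untransformed data, its brightness was 38.0 to 51.2 on controls and 2300 to 3440 with TNFα. TGFß1 moved the gene the other way, to -5.56, -5.78 and -5.91 on TGFß1 2, 7 and 12. None of these 3 readings was well above background, so that the fall has only a lower limit: *Icam1* was at least 3.13-fold lower than on control arrays (difference of the measured means -2.03, SE 0.25, q = 0.000138). The fall was -2.04 on both slides. With a normexp background correction it was -0.50 (q = 0.0653) and no longer called, and this correction adds an offset of 50 that compresses readings as dim as these (9.75 to 11.8).

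IL-1β and IL-6 left *Icam1* between controls and TNFα. The level was -2.06, -1.96 and -1.42 on IL-1β 5, 10 and 15, above all controls and below all TNFα arrays. This was a rise of 1.91 over control (SE 0.25, 3.76-fold, q = 0.00489), and 4.01 below TNFα (fell by 4.01 on the log2 scale, 16.1-fold lower, q = 3.19e-06). The call of IL-1β over control was lost under some settings. With the 6 arrays of IL-1β and control alone the q-value was 0.194. With the mean over both probes of the gene the rise over control was 1.00 (q = 0.355). On IL-6 3, 8 and 13 the level was -2.85, -2.30 and -2.71, again above every control array. The difference of 1.10 (SE 0.25, 2.15-fold) was not called (q = 0.28). Ordered by mean, the groups ran TNFα (2.20 ± 0.30, SD, n = 3), IL-1β (-1.81 ± 0.34), IL-6 (-2.62 ± 0.29), control (-3.72 ± 0.43) and TGFß1 (-5.75 ± 0.18). Between neighbours in this order, neither IL-1β and IL-6 (0.81, q = 0.376) nor IL-6 and control passed the test, while the other steps did. From end to end, TNFα was at least 189-fold above TGFß1 (difference of the measured means 7.95, q = 1.89e-09).

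A second *Icam1* probe was well above background on the 3 TNFα arrays alone. It read -2.37, -2.26 and -1.94 there and -7.70 to -6.19 on all others. It was at least 9.48-fold higher with TNFα than on control arrays. The probe passed the filter only through these TNFα arrays, so this value is no separate support for the rise. For the other cytokines the probe gives no comparison with control, as both sides were below background.

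*Vcam1* (NM_011693) encodes VCAM-1, the ligand of the leukocyte integrin VLA-4 (α4β1). Control 1, 6 and 11 read 2.03, 2.83 and 2.41. With TNFα the level was 4.27, 4.56 and 4.46, and with TGFß1 it was 0.93, 1.64 and 1.06. The 3 groups did not overlap. TNFα raised *Vcam1* by 2.01 (SE 0.27, 4.02-fold, q = 0.000409). TGFß1 lowered it by a log2 fold-change of -1.21 (SE 0.27, 2.31-fold lower, q = 0.0063), with -0.58 within slide 1, where TGFß1 has 1 array, and -1.83 within slide 2, where control has 1. Both calls were made by the second probe as well, at 2.42 (q = 0.000145) and -1.07 (q = 0.0156). With IL-1β and IL-6 *Vcam1* was not called. It read 2.51, 3.21 and 2.83 with IL-1β (0.43, SE 0.27, q = 1.00), where IL-1β 10 was above all controls. With IL-6 it read 1.85, 2.67 and 2.26 (-0.17, SE 0.27, q = 1.00). IL-1β was 2.99-fold below TNFα (-1.58, q = 0.00461). Against TGFß1, IL-1β was 3.11-fold higher (1.64, q = 0.00105) and IL-6 2.06-fold higher (1.04, q = 0.0149); the latter call was lost without IL-6 8 (0.84, q = 0.077), TGFß1 2 (0.90, q = 0.066) or TGFß1 12 (0.97, q = 0.0553). IL-1β and IL-6 differed by 0.59 (q = 1.00), which was not called. The label numbers fall into runs of 1 to 5, 6 to 10 and 11 to 15, and every group has an array in each run. A model with these runs called the difference (q = 0.0311), as did one with the runs and the slide (q = 0.0156), in which 1.77% of all probes were called. For IL-1β against control, the model with runs and slide called the second probe higher (0.63, q = 0.0311), beside 1.09% of all probes. It did not call the brightest probe there (q = 0.0835).

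*Icam2* (NM_010494) encodes a shorter relative of ICAM-1 that binds LFA-1 and is known from resting endothelium. It read -3.94, -4.44 and -3.78 on controls, -3.64, -3.44 and -3.18 with TNFα, and -4.30, -4.03 and -4.59 with TGFß1. The TNFα arrays were above all controls. The difference of 0.63 (SE 0.25, 1.55-fold) was not called (q = 0.125). With the slide in the model it was 0.73 and called (q = 0.0384), beside 5.68% of all probes called higher in that model. The levels with IL-1β (-4.24, -3.29 and -3.61) and IL-6 (-4.26, -4.11 and -4.52) overlapped the controls. TNFα was called above TGFß1 (0.89, 1.85-fold, q = 0.0292) and above IL-6 (0.88, 1.84-fold, q = 0.042). Neither call was stable to the loss of an array: the call against IL-6 was lost without any 1 of the 6 arrays (log2 fold-change 0.76 to 0.99), and that against TGFß1 without TNFα 9, TNFα 14, TGFß1 2 or TGFß1 12 (0.75 to 0.90).

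*Alcam* (NM_009655) encodes ALCAM (CD166), which binds itself and CD6 on lymphocytes. On control 1, 6 and 11 it stood at 1.82, 0.22 and 1.06, a wide spread. TGFß1 arrays read 3.09, 3.71 and 2.96, all above every array of the other groups. The rise was 2.22 (SE 0.45, 4.65-fold, q = 0.00389), and 2.44 (q = 0.00603) with the second probe. The levels with TNFα (1.62, 0.51 and 1.27), IL-1β (1.89, 0.74 and 0.95) and IL-6 (1.45, 0.43 and 0.47) lay within the range of the controls or just above it. The differences from control were 0.10 (95% interval -0.88 to 1.08), 0.16 (-0.82 to 1.14) and -0.25 (-1.23 to 0.73). In these groups and in the controls, the array with a label number of 1 to 5 was the highest. With run and slide in the model, where 22.4% of all probes were called with TGFß1, the rise with TGFß1 was 2.41 (q = 3.89e-05) and the difference with TNFα 0.29 (q = 0.358). TNFα, IL-1β and IL-6 were all called below TGFß1, by -2.12 (q = 0.00627), -2.06 (q = 0.0063) and -2.47 (q = 0.00215).

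*Ncam1* (NM_001113204) encodes NCAM (CD56), best known from neurons and natural killer cells, which binds itself on neighbouring cells. It read 3.46, 3.08 and 3.73 on controls and 4.84, 4.89 and 5.10 with TGFß1. No array of another group came near the TGFß1 arrays, the highest being TNFα 14 at 3.74. TGFß1 raised *Ncam1* by 1.52 (SE 0.19, 2.86-fold, q = 0.000196). All 4 probes of the gene were called, at 1.30 to 1.80, and they carry the names of 2 transcripts (NM_001113204 and NM_010875). TNFα (3.45, 3.20 and 3.74) differed from control by 0.04, with a 95% interval of -0.39 to 0.46. The same difference was -0.16 (-0.58 to 0.26) with IL-1β and -0.04 (-0.46 to 0.38) with IL-6. None of these intervals reaches the change with TGFß1, and TNFα, IL-1β and IL-6 were each called below TGFß1 (-1.48, -1.68 and -1.56). The 7 neural markers gave summed levels of 1.73 to 3.37 on controls and 1.93 to 3.07 with TGFß1, ranges that overlap.

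*Mcam* (NM_023061) encodes MCAM (CD146), which marks endothelium, pericytes and smooth muscle. Its levels followed the slide. The 7 arrays of slide 2 read 4.64 to 5.12 and the 8 arrays of slide 1 read 3.84 to 4.34. TNFα (5.04, 4.99 and 4.29) and TGFß1 (5.12, 4.34 and 5.06), with 2 arrays each on slide 2, differed from control (3.95, 4.64 and 3.93) by 0.60 (SE 0.33, q = 0.272) and 0.67 (SE 0.33, q = 0.161). With the slide in the model these were 0.35 (q = 0.00657) and 0.42 (q = 0.00141), which pass the q-value but not the fold-change of 1.5. With IL-1β (-0.01) and IL-6 (0.12) the differences were smaller still. Of 7 pericyte and smooth muscle markers, *Acta2*, *Cnn1* and *Notch3* were well above background on all arrays and *Myh11* and *Des* on none. The summed level of the 7, in which the brightest weigh most, was 6.57 to 7.75 on controls. It was 7.20 to 7.97 with TNFα and 7.14 to 7.69 with TGFß1. Against control, *Rgs5* was called lower with both cytokines and *Cspg4* higher with TGFß1. The median of the 5 tested was -0.72 with TNFα and 0.37 with TGFß1. The part of these markers in the levels of *Mcam* was not tested.

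*Cd44* (NM_009851) encodes the receptor for hyaluronan, on which leukocytes also roll. Controls read 3.66, 3.33 and 3.42. TNFα gave 4.51, 4.42 and 4.18 and TGFß1 gave 4.46, 4.24 and 4.36. Both groups stood above every array of control, IL-1β and IL-6. The rise was 0.90 with TNFα (SE 0.15, 1.87-fold, q = 0.00205) and 0.89 with TGFß1 (SE 0.15, 1.85-fold, q = 0.00128). Between TNFα and TGFß1 the difference was 0.01, with a 95% interval of -0.31 to 0.34. IL-1β (3.83, 3.55 and 3.79) and IL-6 (3.67, 3.25 and 3.71) differed from control by 0.26 (-0.07 to 0.58) and 0.08 (-0.25 to 0.41). The calls of IL-1β below TNFα (-0.65, q = 0.0264) and below TGFß1 (-0.63, q = 0.0102) lay close to the fold-change limit. The first was lost without IL-1β 10, IL-1β 15, TNFα 4 or TNFα 9 (-0.68 to -0.56) and the second without IL-1β 10 (-0.54) or TGFß1 2 (-0.58). The other *Cd44* probes did not all follow. Probe 2 was called with both cytokines, at 1.03 (q = 0.0169) and 0.75 (q = 0.0447). Probe 3, the dimmest, had 0.74 (q = 0.166) with TNFα and 0.01 (q = 0.981) with TGFß1. The calls of IL-1β below TNFα and below TGFß1 were made by the brightest probe only. Against TNFα, probes 2 and 3 gave -0.71 (q = 0.132) and -0.72 (q = 0.247). Against TGFß1 they gave -0.42 (q = 0.248) and 0 (q = 0.992). With the mean over all 3 probes, TGFß1 gave 0.55 and was not called (q = 0.0545). All 3 probes carry the name of 1 transcript, and which parts of *Cd44*, a gene of many splice forms, they lie in was not analysed here.

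**Figure D3:**
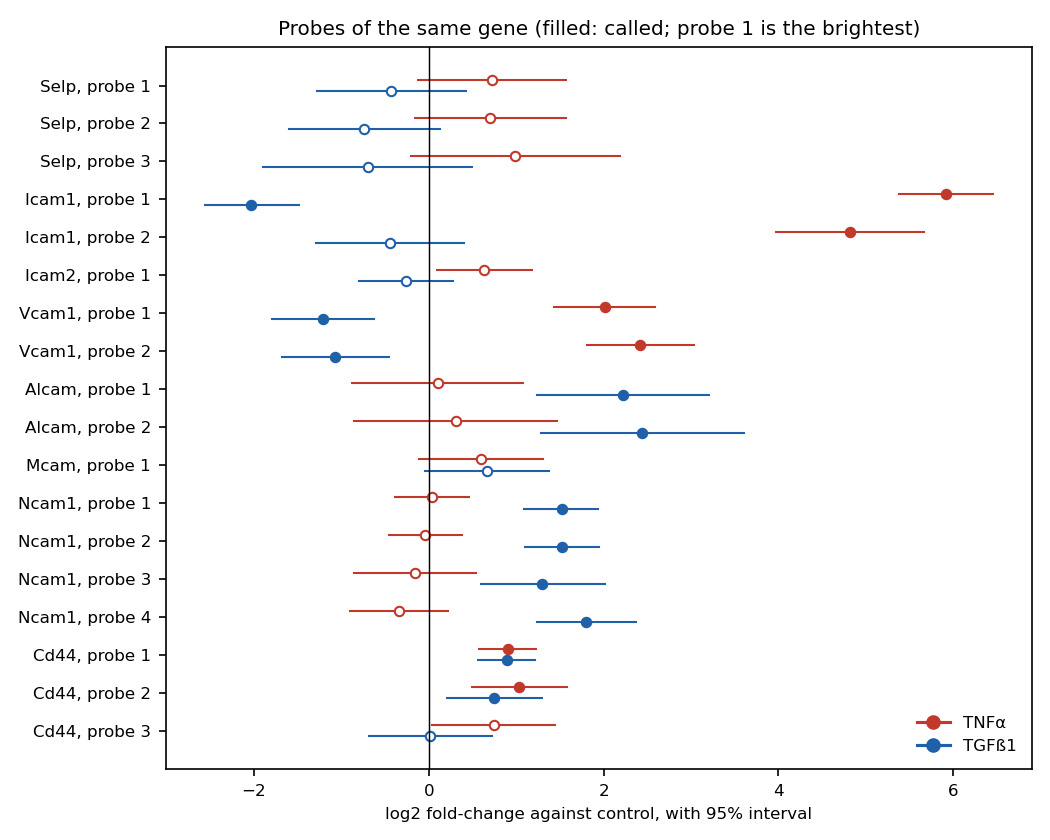
Log2 fold-change against control (x axis, log2 units) of each of the 18 tested probes, with TNFα in red and TGFß1 in blue, with 95% intervals; filled points were called and probe 1 of a gene is the brightest. The probes of *Vcam1*, *Alcam* and *Ncam1* lie side by side, whereas probe 3 of *Cd44* sits at 0.01 with TGFß1 and probe 2 of *Icam1*, not above background on either side, at -0.44.

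*Selp* (NM_011347) encodes P-selectin, stored in platelets and endothelium. It read -2.78, -4.26 and -3.47 on controls, -2.16, -3.36 and -2.81 with TNFα, and -3.60, -4.24 and -3.95 with TGFß1. IL-1β gave -2.14, -3.09 and -2.32 and IL-6 gave -2.19, -2.31 and -2.78. Within every group the array with a label number of 1 to 5 was the highest. No difference from control was called: 0.72 with TNFα (q = 0.268), -0.43 with TGFß1 (q = 0.459), 0.99 with IL-1β (q = 1.00) and 1.07 with IL-6 (q = 1.00). A model with both run and slide, in which 15.4% of all probes were called, gave 0.78 with TNFα and called it (q = 0.0278). In that model probes 2 and 3 were also called higher with IL-1β (0.99, q = 0.0272, and 1.20, q = 0.0461; 1.09% of all probes called) and with IL-6 (1.14, q = 0.0224, and 1.60, q = 0.0201; 0.777%), while the brightest was not (q = 0.0732 and 0.0645). The second probe was called lower with TGFß1 (-0.60, q = 0.0218). *Selp* was called above TGFß1 with IL-1β (1.42, 2.67-fold, q = 0.0207) and with IL-6 (2.84-fold, q = 0.0158), and probe 2 was called in both comparisons as well. Probe 3 was well above background on no TGFß1 array, and was at least 2.85-fold higher with IL-1β and 3.73-fold with IL-6. It passed the filter only through the TNFα, IL-1β and IL-6 arrays, so its calls here and against control are no separate support. TNFα was above TGFß1 by 1.15 (q = 0.0674), and the second probe called that difference (1.44, q = 0.0268). The brightest probe was called there with run as a block (1.15, q = 0.00584) and with run and slide (1.15, q = 0.0037), where 16.1% of all probes were called. The call of IL-1β was lost without IL-1β 5, IL-1β 15, TGFß1 7 or TGFß1 12 (1.23 to 1.41) and that of IL-6 without IL-6 3, IL-6 8 or TGFß1 7 (1.35 to 1.44). Against TGFß1, the summed level of 7 platelet markers was also higher with IL-1β and IL-6. It was -2.15 to -1.70 with TGFß1, -0.83 to -0.74 with IL-1β, -1.28 to -0.87 with IL-6 and -1.29 to -0.98 on controls. The summed level with IL-1β thus lay above all controls. Against control, the median of the 3 tested was -0.34 with IL-1β, -0.27 with IL-6, -1.47 with TNFα and -1.97 with TGFß1, and the 3 did not all move alike. With TNFα *Itga2b* and *Gp1bb* were called lower and *Ppbp* higher. *Ppbp* was also called higher with IL-1β. The part of these markers in the result was not tested. Of these markers *Pf4*, *Gp9* and *Gp1ba* were well above background on no array, while the chemokine *Ppbp* (-1.97) and the integrin chain *Itga2b* (-2.04) were called lower with TGFß1 than on controls.

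*Sele* (NM_011345) encodes E-selectin, made by inflamed endothelium. It was well above background on 1 of 15 arrays, TGFß1 7, at -3.25. The other readings were -8.06 to -5.46, and TNFα 4, 9 and 14 gave -7.29, -5.46 and -7.56. The gene was not tested, and no response to TNFα was detectable at the brightness of this probe.

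The cytokines were also compared with each other. Between TNFα and TGFß1, 5 of 8 genes were called, *Icam1*, *Icam2* and *Vcam1* higher with TNFα (6.81% of all probes) and *Alcam* and *Ncam1* lower (5.02%). Against TGFß1, IL-1β and IL-6 each gave 6 calls, on the same genes: *Icam1*, *Vcam1* and *Selp* higher and *Alcam*, *Cd44* and *Ncam1* lower. All probes called were 10.7% higher and 6.29% lower for IL-1β, and 10.1% and 6.29% for IL-6. Those comparisons share the TGFß1 arrays. Against TNFα, IL-1β was called lower for *Icam1*, *Vcam1* and *Cd44* (1.72% of all probes) and higher for none (3.11%). TNFα was called above IL-6 for these 3 and *Icam2* (3.49%) and below it for none (5.19%). Between IL-1β and IL-6 limma called none of the 8 (0.419% of all probes), and 3 (*Icam1*, *Icam2* and *Vcam1*) had an unadjusted p below 0.05, beside 4.83% of all probes.

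The genes whose course over the 15 arrays was most like that of a called adhesion molecule were sought among 29256 probes, by the root-mean-square difference of their centred levels. For *Icam1*, whose own SD over the arrays was 2.73, they were *Ubd* (0.71), *Il1r2* (0.80) and *Mmp3* (0.81). *Mmp3*, the matrix enzyme stromelysin, had log2 fold-changes of 3.89 with TNFα, -2.83 with TGFß1, 1.51 with IL-1β and -0.31 with IL-6. *Il1r2*, the decoy receptor of IL-1, had 4.75, -1.55, 2.33 and 1.20. For *Vcam1* (SD 1.12) they were *Gsdmd* (0.27), *Ikbke* (0.28) and *Ifit2* (0.30), with 1.74 to 2.41 with TNFα and -1.20 to -0.82 with TGFß1. *Alcam* (SD 1.06) was closest to *Marcksl1* (0.30), *Gprc5a* (0.32) and *Parvb* (0.33). *Ncam1* (SD 0.68) was closest to *Golm1* (0.15), *Cnnm4* (0.16) and *Cd109* (0.16), and *Cd44* (SD 0.43) to *Nol10* (0.10), *Rars* (0.12) and *Polr3e* (0.13). With 5 groups, many probes share such a course, and the likeness is a description.

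Other genes of adhesion were taken as 7 lists of 72 genes, of which 54 were tested. With TNFα, 6 were called higher (4.12% of all probes) and 2 lower (6.06%), with a median of 0.10. With TGFß1, 9 were called higher (7.17%) and 9 lower (10.8%), with a median of 0.09. With IL-1β and IL-6 limma called none, while 6 and 9 had an unadjusted p below 0.05, as had 3.71% and 3.26% of all probes; with the slide in the model *Gfra1* was called with IL-6 (2.55, q = 0.0279), beside 0.126% of all probes.

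**Figure D4:**
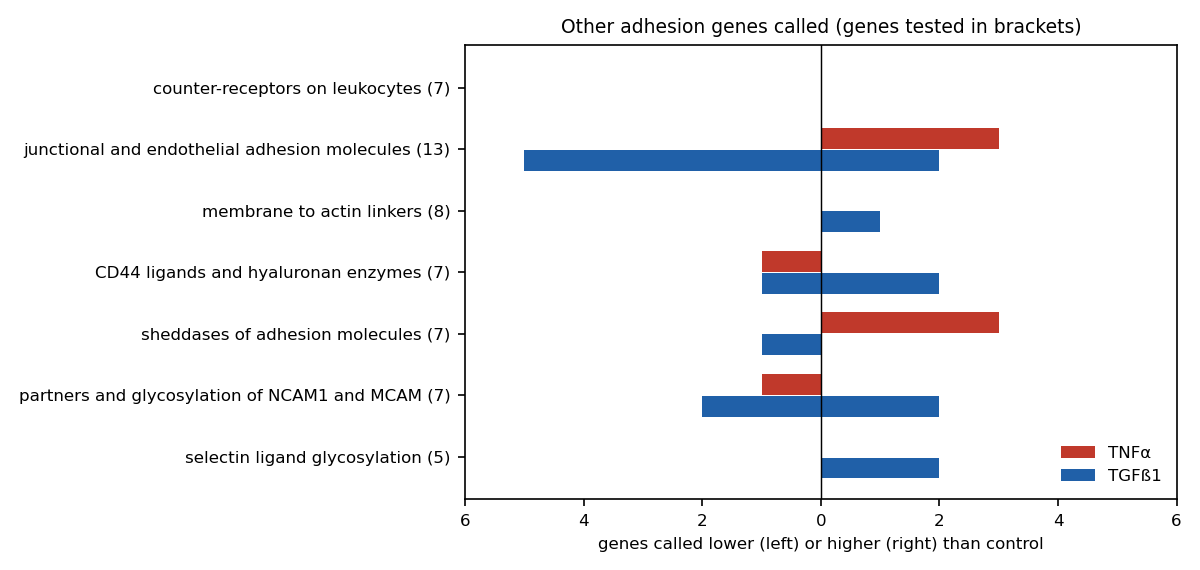
Number of genes called lower (left of 0) or higher (right of 0) than control in 7 lists of adhesion genes, with TNFα in red and TGFß1 in blue and the number tested in brackets. The junctional list has 5 lower calls with TGFß1, and the leukocyte counter-receptors have no bar.

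Leukocyte counter-receptors, the partners of the molecules above, gave no call in 7 tested genes with any cytokine, and none at an unadjusted p below 0.05. The α4 chain *Itga4* was well above background on no array and *Selplg*, the selectin ligand, on 1. In the list of 13 tested junctional and endothelial molecules, TNFα gave 3 higher calls, *Icam5* (1.61, q = 0.000326), *Icam4* (0.92, q = 0.0285) and *Pvr* (0.63, q = 0.00448). TGFß1 gave higher calls for *Jam2* (1.79), a junctional molecule, and *Pvr* (1.52), and lower calls for *Cd34* (-4.14, 17.6-fold lower, q = 0.000108), *Nectin2* (-1.11), *Icam5* (-1.04), *Ninj1* (-0.91) and *Icam4* (measured difference -0.74, with 1 of 3 TGFß1 readings well above background). *Cd34*, a sialomucin of fibroblasts and vessels, fell from 0.08, 1.23 and 0.06 on controls to -3.33, -4.14 and -3.57 on TGFß1 arrays. Of the 10 endothelial markers, 7 were well above background on no array, so that their sum rests on the few others. The summed level of all 10 was 0.24 to 0.69 on controls and -0.33 to -0.04 with TGFß1, and its part in these calls was not tested. Of the 2 that were well above background on all arrays, *Egfl7* was called lower with TGFß1 (-0.82, q = 0.00844) and *Pecam1* differed by -0.05 (q = 0.871).

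*Icam4* and *Icam5* follow *Icam1* directly in the order of genes on chromosome 9, and these names were chosen after their values were seen. All 3 were called higher with TNFα and lower with TGFß1. *Icam5* read -2.47, -2.35 and -2.02 on controls, -0.81, -0.88 and -0.31 with TNFα, and -3.66, -3.43 and -2.86 with TGFß1. The groups did not overlap. With IL-1β (-2.15, -2.11 and -1.83) and IL-6 (-2.50, -2.39 and -2.48) it stayed beside the controls. The promoter of *Icam4* and that of *Icam5* held none of the letters searched above.

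**Figure D5:**
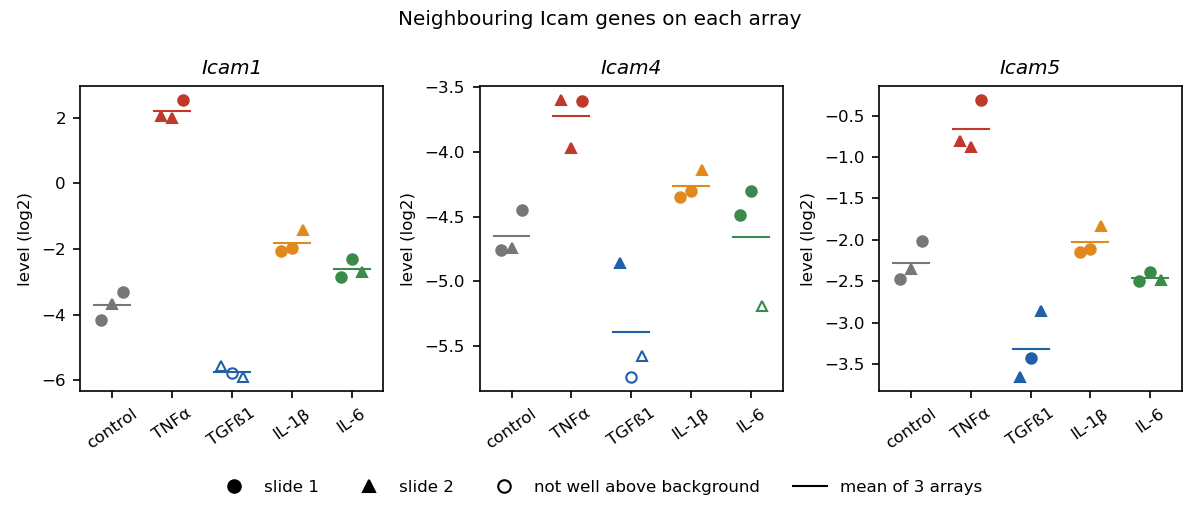
Levels of *Icam1*, *Icam4* and *Icam5* on each array, in log2 units relative to the array's 75th percentile; lines are means of 3 arrays, circles slide 1, triangles slide 2, and open symbols readings not well above background. In each panel the 3 TNFα arrays are the highest and the 3 TGFß1 arrays lie below all controls, and the scales differ between panels.

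Linkers from the membrane to actin gave 1 call in 8, *Msn* (moesin, which binds the tails of ICAM-1 and CD44), higher with TGFß1 (0.92, q = 0.000194). Among 7 tested CD44 ligands and hyaluronan enzymes, *Has2*, a hyaluronan synthase, was higher with TGFß1 (2.29, 4.91-fold, q = 0.000263), as was the hyaluronidase *Hyal2* (0.95). *Vcan*, the hyaluronan-binding proteoglycan versican, was lower with TNFα (-1.72, 3.30-fold lower, q = 0.000618) and with TGFß1 (-0.97, q = 0.0124). *Has2* read 1.05, -0.01 and 0.94 with TNFα, within or just below the controls (1.53, 0.58 and 1.33), so that *Cd44* rose with both cytokines and *Has2* was called with 1 of them.

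The 7 sheddases, proteases able to cut adhesion molecules from the surface, had 3 higher calls with TNFα: *Mmp9* (4.31, 19.8-fold, q = 1.19e-05), *Mmp3* (3.89, 14.9-fold, q = 1.3e-05) and *Adam8* (1.44, 2.71-fold, q = 0.00261). *Mmp3* was the only lower call with TGFß1 (-2.83, 7.09-fold lower, q = 9.78e-05). Among 7 tested partners of NCAM and MCAM, TGFß1 gave higher calls for *Gfra1* (2.26), a GDNF receptor that uses NCAM, and *Fgfr1* (1.39), a receptor that NCAM engages, and lower calls for *Lama4* (-1.57), the laminin chain bound by MCAM, and *Lgals3* (-1.47). *L1cam*, a neural relative of NCAM, was 8.68-fold lower with TNFα (-3.12, q = 5.79e-06). In the 5 tested genes of selectin ligand glycosylation, TGFß1 gave higher calls for *Chst2* (2.84-fold) and *B4galt1* (1.82-fold). *Fut7* and *Fut4*, whose enzymes add the fucose of selectin ligands, were not tested for want of signal.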

How the data were processed

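MEFs were profiled on 15 arrays of 5 groups, assigned from the labels. The authors labelled RNA with Cyanine 3 and extracted spots with Agilent Feature Extraction 10.7.3.1; the deposited intensity is its processed signal, background-subtracted but not normalized between arrays. A deposited table of all arrays repeats these intensity values (largest difference 0). The study used limma with q-values below 0.05 and a 1.5-fold limit.

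Spots marked as non-uniform or as outliers were left out. The 75th percentile of the log2 signal of each array (508 to 683 before log2) was subtracted. Probes well above background (48.3% to 54.9% per array) on all arrays of a group were tested with limma 3.58.1 in R 4.3.3, two-sided, with 1 mean per group and no covariate. RefSeq identifiers named 33767 of 56605 probes through a table of GRCm38.p6. That is not the build of the array design, so probes are given without positions, and the only coordinates are those of the RefSeq sequences shown. A bound on a fold-change puts each dim reading at its own level or that of its array's dimmest probe well above background, whichever is higher. The genes and lists were chosen with earlier results of these data known. Named by rule were all probes of the 9 genes, 3 most alike genes for each gene called against control, and from each list the largest rise, the largest fall and 2 more called genes per comparison; further names, as those of *Icam4* and *Icam5*, were added after values were seen. Alternatives were other background corrections, normalizations, filters, blocks, probe summaries and leaving out each array. Normexp used median spot signals, as the files hold no mean spot signal. The scripts were tested on simulated data. Nothing shows that arrays of a group came from separate animals; the study states independent experiments for control, TNFα and TGFß1, all on 1 line, and p-values cover only the spread between these samples. Precision is limited by 3 arrays per group.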

Additional observations from a re-analysis of the deposited data

How the results depend on the processing

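The number of genes called was within 1.5 times under every alternative with these exceptions. For TNFα against control it was 5 in place of 3 with run and slide as blocks, by *Icam2* and *Selp*. For IL-1β against control it was 0 in place of 1 with the filter on all 15 arrays, which removes *Icam1*, with the arrays of these groups alone, and with the mean over probes. For IL-1β against IL-6 it was 1 in place of 0 with the runs as a block, with or without the slide, by *Vcam1*. Leaving out 1 array gave 3 to 3 calls with TNFα, 5 to 5 with TGFß1, 1 to 1 with IL-1β and 0 to 0 with IL-6, and between cytokines 4 to 5 (TNFα against TGFß1), 2 to 3 (IL-1β against TNFα), 0 to 0 (IL-1β against IL-6), 5 to 6 (IL-1β against TGFß1), 3 to 3 (TNFα against IL-6) and 4 to 6 (IL-6 against TGFß1). No called value changed sign. The rise of *Icam1* with TNFα ranged from 4.74 (normexp) to 5.94 over 12 alternatives. Of the fold-changes of the 8 genes recomputed under the alternatives, 1453 kept their side of the threshold, 47 fell below it and 10 rose above it. Quantile normalization, centring on the median, normexp and no filter on dim probes each lost the calls of *Icam2* between cytokines (0.32 to 0.89), and the first 2 and no filter that of *Cd44* between IL-1β and TNFα (-0.65 to -0.58). This *Cd44* call was also lost with the arrays of the 2 groups alone (-0.65, q = 0.0962) and with the mean over probes (-0.69, q = 0.0554). Between IL-1β and TGFß1, quantile normalization lost the call of *Cd44* (-0.47) and centring on the median that of *Selp* (1.31, q = 0.0596). With the mean over probes, *Cd44* was called in neither IL-1β nor IL-6 against TGFß1 (-0.35 and -0.57). Shares of all probes called moved by over 1.5 times without 1 array in these cases: TNFα against control from 10.2% to 6.48% without TNFα 4; IL-1β against control from 0.252% to as low as 0.123% without any array but control 6; IL-6 against control from 0.0648% to as low as 0.017% without control 1, control 6, IL-6 3 or IL-6 8; IL-1β against TNFα from 4.83% to as low as 2.28% without IL-1β 10 or TNFα 4; IL-1β against IL-6 from 0.419% to 0.181% to 0.259% without any array; and against TGFß1 to 10.9%, from 17.0% without IL-1β 10 and from 16.4% without IL-6 8. The cause of these changes was not tested. No label number is shared between groups, and no source says that a run is an experiment, so the models with the runs as a block are alternatives and not a paired design. Dim readings of *Sele*, of *Icam1* with TGFß1, of the second *Icam1* probe and of probe 3 of *Selp* limit what can be said of them.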
